A study of Mus musculus with 14 samples.

Results

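Drosha-dependent cleavage was mapped in mouse embryonic stem cells (ESCs) by Degradome-seq, and the sites described here are those that lie in a named gene and were listed for the Drosha line but not for the Dicer line of the same study. A site is 1 strand-specific position at which many reads start. From the table of 3919 sites made for the Drosha libraries, 1324 had no entry at the same position and strand in the table made for the Dicer libraries. Of these, 1040 had no gene named and 27 were assigned to a miRNA, snoRNA or scaRNA gene, which left 257 member sites in 248 genes. By the study's methods a position was kept if a classifier called it a pile-up in both control libraries. The deposited table is not fully explained by that rule, since 1 site is at 0 RPM in control 1 and 8 sites are at 0 RPM in control 2. The control levels of the members and their absence from the Dicer table were part of the selection and are given as a description. Beside them, the 378 genic sites that are in both tables serve as the closest comparison.

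All 4 libraries came from 1 ESC line that is homozygous for a floxed Drosha allele (Drosha fl/fl) and carries CreERT2 in the Gt(ROSA)26Sor locus, a ubiquitously active site. The 2 control libraries were from untreated cells. The 2 Drosha-deficient libraries were from cells given 100 nM 4-hydroxytamoxifen for 72 h and then kept for 48 h without it, so the agent itself and the loss of Drosha cannot be told apart in this comparison. The cells grew on Mitomycin C-inactivated mouse embryonic fibroblasts. The Dicer fl/fl line, transduced with GFP or GFP-Cre retrovirus, contributed only its list of positions. The study calls the 2 libraries of a group independent, but no source used here states that they came from separate cultures, so the p-values measure the spread between these libraries. As these are bulk samples, fewer cells with a transcript and less RNA per cell cannot be told apart.

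Drosha is a nuclear RNase III enzyme that, together with Dgcr8, cuts miRNA stem-loops out of primary transcripts and also cuts some mRNAs. Its cut leaves a 5′ monophosphate on the downstream fragment. Degradome-seq ligates an RNA linker to such ends in polyA-tailed RNA, so the first base of a read marks a 5′ monophosphate end. Ends of the same chemistry are also made by other nucleases and by decapping followed by 5′ to 3′ decay. Introns are removed at a GT donor at their start, and spliced mRNA carries the exon junction complex a short way upstream of each exon joint.

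A feature of many members, which the rule did not use, was their distance to the end of the exon. Of the 181 members in an exon other than the last of the transcript, 56 had the last exon base 26 to 28 nt downstream of the site. The following 30-base stretches of the GRCm38 reference start at the first captured base and run 5′ to 3′ on the strand of the gene. They are shown because the end of the exon falls at nearly the same place in each. Lower case marks the exon and capitals mark the start of the intron, and the exon ends after base 27, 28 or 29.
Rbm25 (chr12:83672857-83672886, plus strand): tccagatccagatgcagagctccagaggGT
Safb2 (chr17:56571398-56571427, minus strand): acatgggaggatgatctctgtggagaagGT
Acin1 (chr14:54643939-54643968, minus strand): tctaaagaaaagaagagtgaaaagaaagGT
Cherp (chr8:72468198-72468227, minus strand): ccctgccctgggacttggtcagtatcagGT
Pcf11 (chr7:92647940-92647969, minus strand): tcatagacgttggtactacagtctaacaGT
Trap1 (chr16:4044610-4044639, minus strand): ctagggtcccgtgtcaccaatgtgaagGTA
1810032O08Rik (chr11:116672712-116672741, plus strand): caagggccttcaggatgcctgcgcctgGTA
Ddx43 (chr9:78419322-78419351, plus strand): cacagagtagggcgcactgggagagcaggG

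A second group of members had reference bases directly upstream that are the same as the last bases of the RNA linker CACGACGCUCUUCCGAUCU. The next stretches give 15 bases on each side of the cut, so the first captured base is base 16, and capitals mark the matching bases. They are shown because the same letters end the linker and directly precede the read start.
4930556J24Rik (chr11:3976293-3976322, minus strand): tcttTCTTCCGATCTtcctcctgtgctgtc
Asns (chr6:7681251-7681280, minus strand): ggacagccCCGATCTcctggccgctagaaa
Mfge8 (chr7:79143283-79143312, minus strand): ccccacccCCGATCTttccaacaacctagc
Tmem209 (chr6:30497828-30497857, minus strand): agatgaagCCGATCTcatttctaagcaagc
Hras (chr7:141192562-141192591, minus strand): tggggagacatgTCTactggacatcttaga

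Odf2, Kdm4b and Lrrc59, which are among the 6 members with the largest decreases in Drosha-deficient cells, follow in the same layout. With them are the members at cleavage sites of the study's own list of stem-loops. They are shown because their changes are described in full further on, and they carry no linker match of 3 or more bases. Among the same 6, Hras and Gm26693 have a linker match of 3 bases, and 2610318N02Rik, not shown here, has none.
Odf2 (chr2:29914455-29914484, plus strand): aggcacagcttcgctgcaaagaggctgaga
Kdm4b (chr17:56402608-56402637, plus strand): taaaaaaggacctaaccttgggcctggagg
Lrrc59 (chr11:94634612-94634641, plus strand): ccgcagactttggccgcctggttaaccttc
Rara (chr11:98973796-98973825, plus strand): aggcctggacccaagatggactgccctctt
Coq2 (chr5:100655417-100655446, minus strand): ccgaggactgctgggacaagttcacctcca
Ywhaq (chr12:21417518-21417547, minus strand): gatcaaagtggtgggactcgcgtcgcggct

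The libraries were first checked against their labels. No member or other site lay in Drosha, so its own RNA was not measured here per library. Of the 89 sites in miRNA genes of the same table, 79 had both control values higher than either Drosha-deficient value (88.8%), and the median log2 fold change was −1.98. Over all sites the same held at 59.9%, with a median of −0.93. By the study's methods sites were kept for a pile-up in the controls, by a classifier trained on miRNA sites, so this check is tilted towards a decrease. Values were deposited as RPM, the reads that start at a position scaled to the mapped reads of the library, and 1 read was worth between 0.0323 and 0.0349 RPM in the 4 libraries. A floor of 3 reads then lies between 0.0968 and 0.105 RPM, and 0, 4, 5 and 8 members were at or under it in control 1, control 2, Drosha-deficient 1 and Drosha-deficient 2. This floor covers counting error only. In RNA-seq of the same line the authors' mean log2 CPM over 6 libraries had a median of 7.51 for 20 pluripotency markers and 3.04 for 20 fibroblast markers. The median of all genes in that table was 2.34. Among the fibroblast markers only Lum (−0.63) and S100a4 (−1.94) were below a log2 CPM of 1, and Fn1 (11.2) and Sparc (9.42) were highest. None of the markers of either list hosted a member.

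Members were shallow. Their mean over the 4 libraries had a median of 1.76 RPM (51.8 reads) and ran from 0.204 to 317 RPM, with 51 members under 1 RPM and 21 above 10 RPM. The genic sites in both tables had a median of 5.15 RPM. By library, the median of the members was 2.30 and 2.09 RPM in control cells and 1.26 and 1.11 RPM in Drosha-deficient cells, so both control medians were above both others. Summed over the members, however, the 4 libraries held 2089, 1839, 2072 and 1721 RPM in the same order and the groups overlapped. Between the 2 control libraries 34 members differed by more than 2-fold, and between the 2 Drosha-deficient libraries 43 did. At the extreme, the Cdan1 site had 2.20 RPM in control 1 and 0 RPM in the other 3 libraries.

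Loss of Drosha was compared with control at every site by limma on log2(RPM + 0.1), a scale that understates the change of low sites. A site was called if its false discovery rate (FDR) over all 3919 sites was under 0.05 and its log2 fold change was past −1.5 or 1.5, which are the thresholds of the study. In all, 76 members were called decreased (29.6%), 2 were called increased and 179 were not called. Over all 3919 sites, 37.6% were called decreased and 9.57% increased. Both control values exceeded both Drosha-deficient values at 172 members (66.9%, against 59.9% of all sites), and the reverse held at 26 (21.2% of all sites). The median log2 fold change of the members was −0.94, beside −0.93 over all sites and −0.81 over the genic sites in both tables, of which 89 were called decreased and 11 increased. Where a site entered the table for its pile-up in the controls, the comparison is tilted towards a decrease, for members and other sites alike.

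The counts depended on the scale, the pseudocount and 1 library. The typical site in the table was itself lower in Drosha-deficient cells. With each library centred on the median of all sites, the median of all sites moved from −0.93 to −0.34 and that of the members from −0.94 to −0.35. The called members were then 30 decreased and 11 increased, so the share of decreases among the calls went from 97.4% to 73.2%. Over all sites the uncentred fit called 1473 decreased and 375 increased. Calls over all sites were not counted under the alternatives, so the member counts cannot be set beside them. Without control 1, whose values were higher than those of control 2 at the median member, the count of decreases went from 76 to 36, and with a pseudocount of 1 RPM it was 11. The median of all sites was −0.77 in the first of these fits and −0.60 with the pseudocount of 1 RPM.

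**Figure D1:**
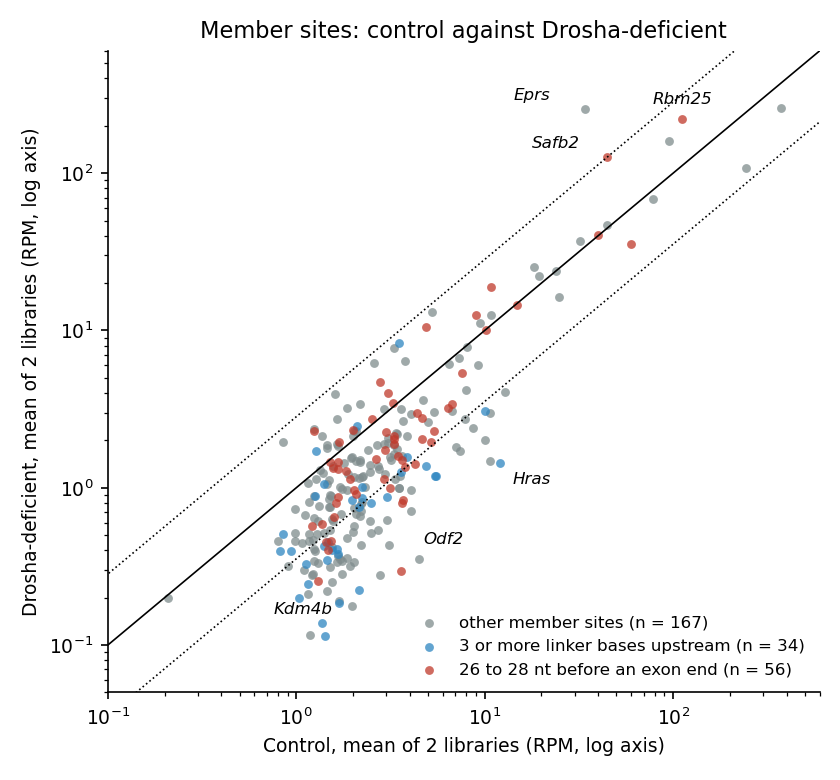
Mean RPM of each member site in the 2 control libraries (horizontal log axis) against that in the 2 Drosha-deficient libraries (vertical log axis), with the line of equal values and dotted lines at a log2 difference of 1.5 either way. Most points lie below the line of equal values, those near an exon end (red) reach the highest levels with the unmarked ones (grey), and Eprs and Safb2 lie at or above the upper dotted line; Cdan1, at 0 in both Drosha-deficient libraries, is not drawn.

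Like the 378 genic sites in both tables, all 257 members lay in an annotated exon on the strand of the gene. Of these, 136 (52.9%) were in coding sequence, 40 in a 5′ UTR, 32 in a 3′ UTR, 25 in an exon of a non-coding transcript of a coding gene, 14 in an exon of a non-coding gene and 10 in the exon of a small RNA that the gene names did not give away. Among the genic sites in both tables, 113 of 378 (29.9%) were in coding sequence and 61 (16.1%) in a small RNA exon. The sites in coding sequence with a frame were spread over the 3 codon positions, with 41, 40 and 54. Calls of a decrease numbered 41 of 136 in coding sequence, 10 of 40 in 5′ UTRs, 11 of 32 in 3′ UTRs, 7 of 25 in non-coding transcripts of coding genes, 6 of 14 in non-coding genes and 1 of 10 in small RNA exons, beside 37.6% of all sites.

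The exon end was the clearest landmark. By single distances, 15 members had the last exon base 26 nt downstream, 28 had it 27 nt downstream and 13 had it 28 nt downstream. No other window of 3 nt up to 100 nt held more than 5. The same place was filled by 29 of the 212 genic sites in both tables that were not in a last exon, where no other window held more than 7. The share was 30.9% of the members and 13.7% of the shared sites, and this difference was not tested. Every one of the 56 exon ends was followed by GT, as were all 29 of the shared sites and all 85 over all sites. None of the 56 sites had a linker match of 3 or more bases, and 53 had a single exact copy of their first 30 bases in the genome. They fell in 55 genes, 51 in coding sequence, with 16, 15 and 19 in the 3 codon positions among those with a frame. The window was chosen after the distances had been seen.

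**Figure D2:**
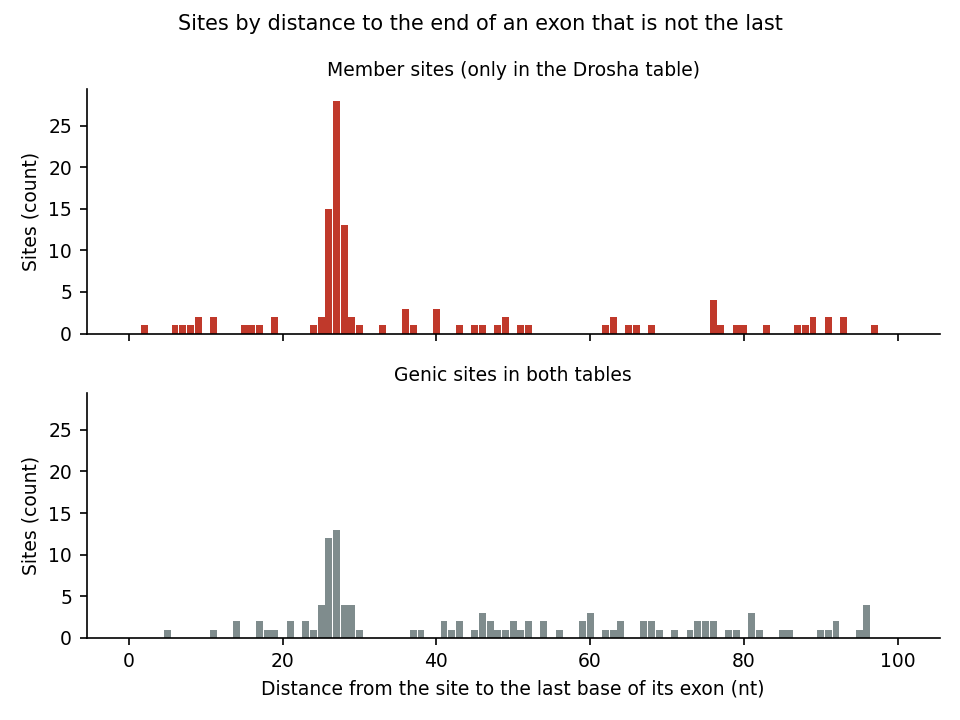
Number of sites at each distance, in nt, from the site to the last base of its exon, for members (upper panel) and genic sites in both tables (lower panel) that do not lie in the last exon of the transcript. Both panels peak at 26 to 28 nt, with 56 of 181 members and 29 of 212 shared sites in these 3 bars.

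Among the exon-end members, 8 of 56 were called decreased and 1 increased, with a median log2 fold change of −0.75 (14.3% decreased, beside 37.6% of all sites). Among the other 201 members, 68 were called decreased and 1 increased, with a median of −0.98. With the libraries centred, these medians were −0.16 and −0.39. Exon-end sites were also 8 of the 21 members above 10 RPM. The deepest was in exon 14 of Rbm25, an RNA-binding regulator of splicing, with 105 and 117 RPM in control and 208 and 234 RPM in Drosha-deficient cells. All Drosha-deficient values were above the control values, but the log2 fold change of 0.99 (SE 0.32, FDR = 0.0119) was short of the threshold. Safb2, an RNA-binding protein of the nuclear matrix, had 47.9 and 40.9 RPM in control and 129 and 126 RPM in Drosha-deficient cells. Its site in exon 10 was called increased (log2 fold change 1.52, SE 0.32, FDR = 0.000642), only just past the threshold, and it was under it without control 2 and with the libraries scaled to uniquely mapped reads (1.26).

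At 3 other deep exon-end sites the fold changes were near 0. In Acin1, whose product acinus belongs to a splicing-associated complex, control cells had 43.6 and 35.9 RPM and Drosha-deficient cells 45.8 and 34.7 RPM. In Cherp, which encodes a splicing-associated protein, the values were 14.7, 14.8, 14.9 and 14.3 RPM in the same order. For Pcf11, a subunit of the machinery that cuts and polyadenylates pre-mRNA, they were 11.0, 9.41, 11.1 and 9.14 RPM. At these 3 sites the groups overlapped and the log2 fold changes were 0.01, −0.02 and −0.01, with SEs of 0.33 to 0.35. Trap1, a mitochondrial chaperone, had 9.80 and 8.11 RPM in control and 12.7 and 12.2 RPM in Drosha-deficient cells (0.48, FDR = 0.23). Ddx43, a DEAD-box RNA helicase, had 9.87 and 11.8 RPM in control and 17.5 and 20.3 RPM in Drosha-deficient cells (0.80, FDR = 0.0474). The non-coding gene 1810032O08Rik, named Snhg16 in the deposited table and so a snoRNA host, had 64.0 and 55.7 RPM in control and 33.1 and 37.7 RPM in Drosha-deficient cells (−0.76, FDR = 0.0473). The last 3 had groups that did not overlap, and none was called. These genes were named for their depth after the values had been seen.

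The exon-end members called decreased were shallower, at 0.785 to 2.84 RPM on average. The largest change was in 2610318N02Rik, a gene with no assigned function, which had 4.57 and 2.63 RPM in control and 0.387 and 0.209 RPM in Drosha-deficient cells (log2 fold change −3.20, SE 0.50, FDR = 6.08e-05). The first 30 bases at this site have 2 exact copies in the genome. Srebf1, a transcription factor of lipid synthesis, had 3.94 and 3.32 RPM in control and 0.806 and 0.799 RPM in Drosha-deficient cells (−2.04). Cenpk, a kinetochore protein, had 4.11 and 3.28 RPM in control and 0.839 and 0.834 RPM in Drosha-deficient cells (−2.01). In both, every control value was more than 3 times every Drosha-deficient value. The remaining 5 were Brwd1 (−2.15), Slc27a3 (−1.64), Exosc7 (−1.62), Fbxw9 (−1.57) and Ywhaq (−1.54).

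Across all members, the 6 largest decreases with groups that did not overlap and at least 10 reads on average were in Odf2, Kdm4b, 2610318N02Rik, Lrrc59, Hras and Gm26693. Odf2, a protein of sperm tail fibres and centriole appendages, had 4.32 and 4.65 RPM in control and 0.258 and 0.452 RPM in Drosha-deficient cells. This site, in exon 12 of 22 at 40 nt from the exon end, had a log2 fold change of −3.37 (SE 0.46, FDR = 2.44e-05), and a site that is in the Dicer table lies 23 nt away. Kdm4b, a histone demethylase, had 2.02 and 1.95 RPM in control and 0.355 and 0 RPM in Drosha-deficient cells. Its site in the 3′ UTR had a log2 fold change of −3.29 (SE 0.66, FDR = 0.00048), which rests partly on the library at 0 and was between −4.38 and −2.20 with 1 library left out. Lrrc59, a leucine-rich repeat protein of the endoplasmic reticulum, had 3.49 and 2.05 RPM in control and 0.452 and 0.104 RPM in Drosha-deficient cells (−3.05, SE 0.56, FDR = 0.000247), of which the last is at the floor of 3 reads. A site that is in both tables lies 52 nt from it, and the study's list of stem-loops places a cleavage site there.

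Hras, a small GTPase of growth factor signalling, was the deepest of the 6. It had 13.1 and 11.0 RPM in control and 1.87 and 1.01 RPM in Drosha-deficient cells. Its log2 fold change was −3.04 (SE 0.40, FDR = 1.98e-05), and the reference bases upstream of this site match the last 3 bases of the linker. The non-coding gene Gm26693 had 2.37 and 1.95 RPM in control and 0.0645 and 0.382 RPM in Drosha-deficient cells (SE of the log2 fold change 0.58, FDR = 0.000376), also with a linker match of 3 bases. Its value in Drosha-deficient 1 is 2 reads, under the floor of 3. All 6 stayed called with each of the 4 libraries left out in turn, but without 1 library Lrrc59 was between −3.77 and −2.33 and Gm26693 between −3.77 and −2.22. With a pseudocount of 1 RPM the calls of Kdm4b (−1.36) and Gm26693 (−1.38) were lost.

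**Figure D3:**
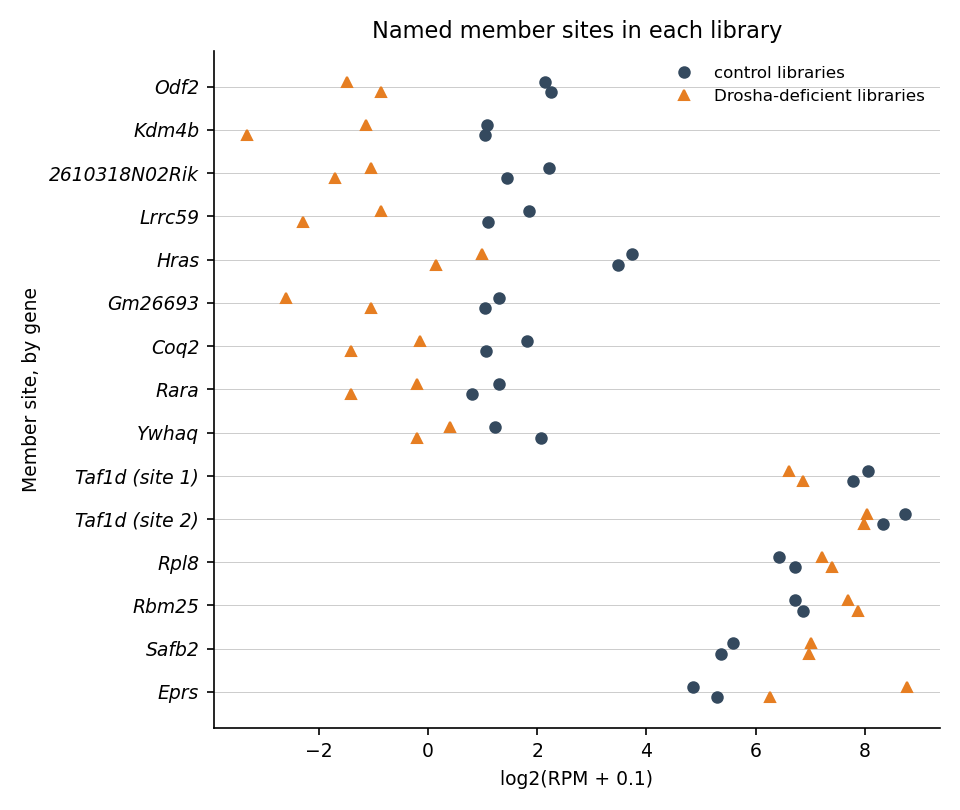
Values of 15 member sites in each library as log2(RPM + 0.1), ordered by fold change, with control libraries as circles and Drosha-deficient libraries as triangles. The upper 9 sites, from Odf2 to Ywhaq, show every triangle left of every circle, while at Rpl8, Rbm25, Safb2 and Eprs the triangles lie to the right; the site labelled Taf1d (site 1) is that in the small RNA exon.

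Only 2 members were called increased, Safb2 and Eprs. Eprs encodes the glutamyl-prolyl-tRNA synthetase. Its site in exon 15 of 32 had 28.9 and 39.0 RPM in control and 437 and 76.9 RPM in Drosha-deficient cells. The reference bases upstream of this site resemble the end of the linker, with mismatches that include the last base. Only an unbroken match from the last base was counted, so the Eprs site has a match of 0 bases. The part of the linker at this site was not tested. The 2 Drosha-deficient libraries differed more from each other than the lower of them did from control. Its log2 fold change was 2.44 (SE 0.53, FDR = 0.000929), and without Drosha-deficient 1 it was 1.19. Without control 1 or control 2 it was 2.23 or 2.66, and in all 3 of these fits the call was lost.

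The deepest members were 2 sites in Taf1d, which encodes a subunit of the TBP complex of RNA polymerase I and hosts snoRNAs in its introns. The deeper one, in an exon of a non-coding transcript, had 425 and 321 RPM in control and 265 and 255 RPM in Drosha-deficient cells (log2 fold change −0.51, FDR = 0.186). The other lies in the exon of the small RNA Gm24357, at 1 nt from a site of the Dicer table, and had 267 and 221 RPM in control and 97.5 and 118 RPM in Drosha-deficient cells (−1.18, FDR = 0.00433). At both sites the groups did not overlap and neither was called. Rpl8, a protein of the large ribosomal subunit, had 85.9 and 105 RPM in control and 150 and 170 RPM in Drosha-deficient cells (0.74, FDR = 0.0512).

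A few genes held more than 1 member. Exoc4, a subunit of the exocyst that tethers secretory vesicles, held 3, the most of any gene. A pair 12 nt apart in exon 6 had 1.43, 1.20, 0.774 and 0.765 RPM and 1.78, 1.23, 0.387 and 0.695 RPM in control 1, control 2, Drosha-deficient 1 and Drosha-deficient 2. In both, every control value was above every Drosha-deficient value, and neither was called. The third, in the 3′ UTR with a linker match of 4 bases, had 0.314 and 3.87 RPM in the 2 control libraries and 2.87 and 2.05 RPM in the others, so its controls disagreed more than 10-fold and no direction can be read. Fmr1, a translational regulator that is silenced in fragile X syndrome, held 2 sites in exon 15. The deeper went from 12.7 and 13.0 RPM to 3.55 and 4.62 RPM and was called decreased (log2 fold change −1.64, SE 0.36, FDR = 0.000925). The call was lost with the libraries centred (−1.05), with a pseudocount of 1 RPM (−1.45) and without Drosha-deficient 1 (−1.45). The other, 44 nt downstream, went from 3.24 and 2.67 RPM to 1.32 and 1.11 RPM and was not called (−1.21, FDR = 0.019). In Rbm25 the second site, 25 nt from the end of exon 16, had 2.96 and 3.83 RPM in control and 1.97 and 2.47 RPM in Drosha-deficient cells (−0.59, FDR = 0.211), whereas the values at its exon 14 site were higher in Drosha-deficient cells. These sites share a transcript and are not replicates.

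Grouped by function, the members gave small lists, and no list had more than 3 calls. Each count is to be set beside the 37.6% of all sites that were called decreased and their median log2 fold change of −0.93. Of 7 sites in ribosomal protein genes, 2 were called decreased (28.6%) and none increased (median −0.64). Rps18, of the small subunit, had 4.18 and 3.97 RPM in control and 0.903 and 1.04 RPM in Drosha-deficient cells (−1.96), and Rpl38, of the large subunit, had a log2 fold change of −1.97. Rpl12 had overlapping groups, with 55.0 and 34.2 RPM in control and 51.3 and 42.6 RPM in Drosha-deficient cells (0.11). Rps12 had 32.5 and 31.4 RPM in control and 38.6 and 35.3 RPM in Drosha-deficient cells, a small gap between groups (0.21, FDR = 0.587). The Rps12 site lies in the exon of the small RNA Gm23130 and the Rpl12 site in an exon of a non-coding transcript. Both are 1 nt from a site of the Dicer table. The 5 sites that were not called thus include the 3 deepest of the list. Mrpl38, a mitochondrial ribosomal protein, was called decreased (−1.52, FDR = 0.0126), though in only 1 of the 4 fits without a library, and not with the libraries centred (−0.93).

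Of 9 sites in splicing factor and hnRNP genes, 3 were called decreased (33.3%, beside 37.6% of all sites; median −0.98). In Srsf7, an SR protein of splicing, the site in the 5′ UTR had 7.46 and 7.32 RPM in control and 1.23 and 2.19 RPM in Drosha-deficient cells (−2.10, SE 0.40, FDR = 0.000348). It lies within 5 nt of an annotated transcript start and 2 nt from a site of the Dicer table. Prpf39, a U1 snRNP-associated protein, held 2 members with different values. The site 26 nt from the end of exon 10 had 2.82, 2.77, 6.13 and 3.30 RPM in library order (0.67, FDR = 0.163), and the site in the 3′ UTR, with a linker match of 8 bases, was called decreased (−1.64, FDR = 0.0125). Hnrnpdl, an hnRNP, had 4.08, 4.04, 3.52 and 2.36 RPM (−0.48).

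Of 7 sites in chromatin regulator genes, 2 were called decreased (28.6%, beside 37.6% of all sites, and median −1.16), in Kdm4b and in the histone methyltransferase gene Kmt2c (−1.82, FDR = 0.0143). The Kmt2c site has a linker match of 7 bases. Brd8, Kdm6b and Kdm3b were not called, at log2 fold changes of −0.54, −0.95 and −0.87. Of 7 sites in proteasome and ubiquitin genes, 2 were also called decreased (28.6%, median −0.98). Ube2c, a ubiquitin-conjugating enzyme of mitosis, was at 9.41 and 6.30 RPM in control and 3.45 and 2.02 RPM in Drosha-deficient cells (−1.51, FDR = 0.0038), only just past the threshold, and was not called with the libraries centred (−0.91). Ube2w had 3.97, 2.63, 8.74 and 6.67 RPM (1.21, FDR = 0.0111), was not called, and the first 30 bases of its site have 46 exact copies in the genome.

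Of 4 sites in chaperone genes, 2 were called decreased (median −1.37, with 37.6% of all sites called), among them Dnajc5, a synaptic vesicle co-chaperone, with 2.55 and 2.43 RPM in control and 0.516 and 0.521 RPM in Drosha-deficient cells (−2.06, FDR = 0.00108, and −1.47 and not called with the libraries centred). The pair of sites in Dnajc15, 2 nt apart in the 5′ UTR, was not called (0.12 and −0.81). No call was made among the 3 sites in helicase genes (Ddx43, Ddx50 and Ddx39b, median −0.12). The same held for the 3 sites counted in cytoskeleton genes (Actn4, Macf1 and Myh9, median −1.07). That count and median leave out the member in Kifc1, which also belongs to this list. Kifc1 had 9.31 and 6.60 RPM in control and 4.45 and 3.96 RPM in Drosha-deficient cells. Calls of a decrease came from 1 of 3 zinc finger sites, in Zfp408 (−2.11) and not in Zfp91 (−1.27) or Zfp638 (−0.04), and from 1 of 2 solute carrier sites, in Slc27a3 and not in the glucose transporter gene Slc2a1 (−0.84). The single sites in Eif4a2, a translation initiation helicase, and in Rad9a, of the DNA damage checkpoint, were not called (−0.98 and 0.24). The sites in Eif4a2 and Ddx39b lie in small RNA exons. No histone gene held a member.

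Dgcr8, whose product is the partner of Drosha, was the only gene of the miRNA machinery with a member. This site lies in a small RNA exon, 2 nt from a site of the Dicer table, and had 1.26 and 0.547 RPM in control and 0.290 and 0.348 RPM in Drosha-deficient cells. The controls were above the Drosha-deficient libraries, but the 2 controls differed by more than 2-fold. The log2 fold change of −1.16 (SE 0.58, FDR = 0.0911) was not called. The member is shallow, at 0.610 RPM on average, and another site of the Drosha table also lies 2 nt away. The study reports Drosha-dependent pile-ups at annotated stem-loops in the Dgcr8 mRNA. Whether the member belongs to those stem-loops was not tested. The missing call at this position therefore does not decide whether Dgcr8 is cleaved by Drosha. Of the 10 members in small RNA exons 1 was called decreased, that in Snhg20, a snoRNA host gene (2.13 and 1.23 RPM in control, 0 and 0.382 RPM in Drosha-deficient cells; −2.97, FDR = 0.00144). Gas5, another snoRNA host, was level at 25.7, 22.4, 24.2 and 23.3 RPM (−0.01). Among the 14 members in exons of other non-coding genes, 6 were called decreased, including the snoRNA hosts Snhg17 (−2.30) and Snhg3 (−2.17) and the long non-coding RNA Dancr (−2.55). Snhg17 had 5.47 and 5.41 RPM in control and 0.548 and 1.84 RPM in Drosha-deficient cells.

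At the exact position of 3 members the study's own list of Drosha-cleaved stem-loops places a cleavage site. The study chose that list on these libraries, so their decrease is not independent evidence. Rara, the retinoic acid receptor alpha, had 2.37 and 1.64 RPM in control and 0.774 and 0.278 RPM in Drosha-deficient cells at its site in the 3′ UTR (log2 fold change −1.85, SE 0.52, FDR = 0.00566). Coq2, an enzyme of coenzyme Q synthesis, had 3.42 and 1.98 RPM in control and 0.806 and 0.278 RPM in Drosha-deficient cells in coding sequence of its last exon (−2.21, SE 0.52, FDR = 0.00167). Ywhaq, an adaptor that binds phosphorylated proteins, had 2.23 and 4.07 RPM in control and 1.23 and 0.765 RPM in Drosha-deficient cells in the 5′ UTR of exon 1 (−1.54, SE 0.46, FDR = 0.00775). At all 3 the groups did not overlap. With a library left out the call of Rara was kept in 1 of 4 fits, that of Coq2 in 3 and that of Ywhaq in 2. Centring ended the calls of Rara (−1.26) and Ywhaq (−0.95), and a pseudocount of 1 RPM ended all 3 (−0.99, −1.26 and −1.03 for Rara, Coq2 and Ywhaq). The Ywhaq site is also 28 nt from the end of its exon, and its first 30 bases have 2 exact copies. Refolded over 80 nt upstream and 20 nt downstream, the 3 sites gave minimum free energies of −32.7 (Rara), −21.2 (Coq2) and −36.3 kcal/mol (Ywhaq). The median over all members was −25.0 kcal/mol, over the genic sites in both tables −24.2 kcal/mol. By region it was −36.9 kcal/mol for members in 5′ UTRs, −23.2 kcal/mol in coding sequence and −21.7 kcal/mol in 3′ UTRs. The energies were not adjusted for GC content. That was 60% at Rara, 51% at Coq2 and 66% at Ywhaq, beside a median of 53% over the members.

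Linker-like members, with 3 or more upstream reference bases that match the 3′ end of the linker, numbered 34 (13.2%). The match had to be unbroken from the last linker base, so sites with a broken resemblance, such as Eprs, are not among them. The same test 100 nt further upstream gave 6 (2.33%). The share was 12.2% among the genic sites in both tables and 30.8% over all sites. By length of the match, 8 members matched 7 bases, 2 matched 8 and 1, in 4930556J24Rik, matched 11. Of the 34, 20 were called decreased with a median log2 fold change of −1.59, against 56 of the other 223 with a median of −0.87. The shares are 58.8% and 25.1%, beside 37.6% of all sites, and the difference was not tested. The linker-like members were also shallower, with a median of 1.21 RPM against 1.82 RPM. Asns, the asparagine synthetase, had 13.5 and 6.57 RPM in control and 3.84 and 2.29 RPM in Drosha-deficient cells at a match of 7 bases (−1.63, FDR = 0.00297). Mfge8, a secreted glycoprotein, had 5.02 and 6.02 RPM in control and 1.52 and 0.869 RPM in Drosha-deficient cells (−2.16, FDR = 0.000385), and Tmem209, a membrane protein, had 1.99 and 0.855 RPM in control and 0.194 and 0.0348 RPM in Drosha-deficient cells (−2.83, FDR = 0.00123). These 3 were named for their match after the values had been seen, and all 3 were called decreased. Of the 8 members with a match of 7 bases, 5 were called decreased, as was 1 of the 2 with 8 bases. The longest match, of 11 bases in 4930556J24Rik, was not called decreased. The part of the linker in these read starts was not tested.

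**Figure D4:**
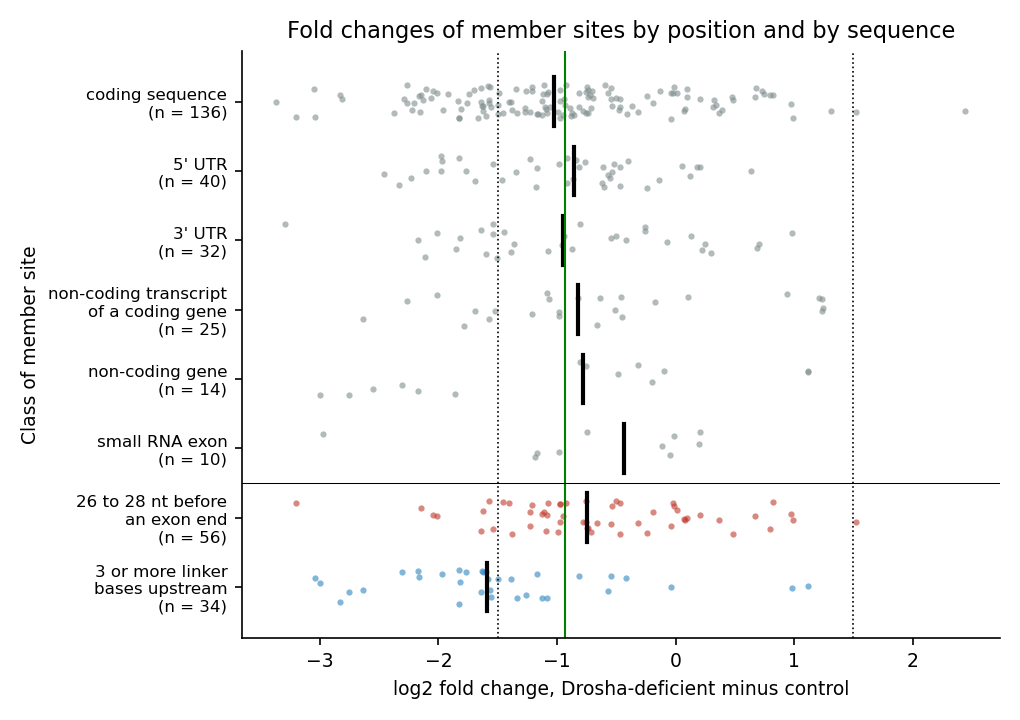
Log2 fold change (Drosha-deficient minus control) of every member site by annotation class (upper 6 rows) and, counted again, for exon-end and linker-like members (lower 2 rows), with thick bars at the class medians, dotted lines at −1.5 and 1.5 and a green line at the median of all sites, −0.93. The linker-like row has the lowest median, −1.59, and the exon-end row has a median of −0.75.

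Few members were close neighbours of a site in the Dicer table. Within 10 nt on the same strand, 14 had one, of which 8 at 1 nt and 5 at 2 nt, so that these entered by the exact match of positions and not by the lack of a nearby end. Of the 14, 2 were called decreased (14.3%, beside 29.6% of the members and 37.6% of all sites). Another site of the Drosha table lay within 10 nt of 16 members, as it did for 257 of all 3919 sites. Without the 14, 74 members were called decreased and 2 increased. A single exact copy of the first 30 bases was found for 240 members (93.4%), and 6 lay within 5 nt of a transcript start. For the 248 members whose gene is in the RNA-seq table, the authors' mean log2 CPM had a median of 6.44, beside 6.86 for the genic sites in both tables.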

How the data were processed

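Degradome-seq libraries of 2 control and 2 Drosha-deficient samples were used. The authors trimmed reads with Trimmomatic 0.38.0, aligned them to GRCm38 with STAR, counted read starts, by their methods kept positions that a classifier trained on miRNA sites called in both controls, and deposited RPM per library. The sites also carry the authors' fold changes, p-values and FDR from edgeR 3.26.1, and the RNA-seq table their log2 fold changes, F scores and p-values, none of which was used. From RNA-seq, only the authors' deposited mean log2 CPM over 6 libraries was used. The Dicer table served as a list of positions.

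The planned tests on counts were not run. All values under 10 RPM lay within 0.1 of a whole multiple of 1 read. However, the smallest value of control 1 above 0 is 2 reads. The worth of 1 read could therefore not be read from the lowest values of that library alone, and the RPM were not treated as counts. Instead, limma 3.58.1 (R 4.3.3) was fitted to log2(RPM + 0.1) over all 3919 sites with a mean-variance trend and Benjamini-Hochberg adjustment, without a replicate term or a filter. On simulated data for this comparison, 96% of 100 sites changed by a log2 fold change of 2 and 100% of 100 changed by 3 were recovered, and 0 of 3719 unchanged sites were called. The simulation changed only sites with a mean over 1 RPM, with 1 fixed dispersion for all sites and no shift between libraries. The members include 51 under 1 RPM, and their replicates differed with SDs of 0.787 (control) and 0.755 (Drosha-deficient) on the log2 scale. These rates therefore cannot be carried over to the members. Positions were placed with GENCODE vM21, which has the build of the files, in the longest coding transcript first. Exact copies of the first 30 bases were counted in the genome, and 100 nt at each site were folded with RNAfold 2.7.2. Sequences are from the RefSeq copy of GRCm38, and the linker from the labels.

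Named sites are the 6 largest called decreases and increases with groups that do not overlap and a mean of at least 10 reads, the 6 deepest, the 6 largest called decreases in exons, the 4 genes with most members, members in the study's stem-loop list, and up to 3 of the deepest in each gene list. One site that the rule names is not reported here. Further sites were named after their values were seen, where the text says so or where they show a count. The members and lists were chosen with earlier results of these data known. Same-numbered control and Drosha-deficient libraries deviated together only weakly (correlation 0.132 over all sites), and with 2 pairs the numbers were not taken to pair them. Alternatives changed the pseudocount, filter, scaling, trend, threshold, block, libraries and members.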

Additional observations from a re-analysis of the deposited data

How the results depend on the processing

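The 76 decreased and 2 increased members and the median log2 fold change of −0.94 were recomputed under the alternatives. With a pseudocount of 1 RPM, 11 were decreased and the median was −0.59. Centring the libraries gave 30, 11 and −0.35, and scaling to uniquely mapped reads gave 94, 1 and −1.22. A fold change threshold of 1 gave 7 increased members, and leaving out the exon-end members, an alternative chosen after the data were seen, gave 1. With a library left out, the decreased numbered 36 to 76, the increased 1 to 5 and the median was −1.05 to −0.77, where the lone library of a group is assumed to vary like the other group. A replicate block gave 77, 2 and −0.94. The other alternatives gave counts within 1.5 times. The cause of these shifts was not tested. The 56 exon-end members were 53 to 56 under their 4 alternatives, all chosen after the data were seen.

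Over 54 named sites, 515 of 594 values kept their direction and side of the threshold, 37 lost the call, 16 gained one and 26 changed sign, all at sites that were not called. Centring gave 0.084 for the deeper Taf1d site, 0.0028 for Rbm25 in exon 16, 0.12 for Hnrnpdl, 0.48 for Ddx39b, 0.056 for Brd8, 0.045 for Actn4, 0.55 for Zfp638, and 0.58 each for Cherp and Pcf11. Scaling to uniquely mapped reads gave −0.15 for Rpl12, −0.051 for Rps12, −0.13 for Dnajc15, −0.013 for Rad9a and −0.25 for Acin1. Leaving out a library gave ranges across 0, of −0.65 to 2.61 for Exoc4 in the 3′ UTR, −0.23 to 0.45 for Rpl12, −0.059 to 0.30 for Dnajc15, −0.44 to 0.20 for Ddx39b, −0.14 to 0.055 for Zfp638, −0.19 to 0.21 for Acin1, −0.046 to 0.0087 for Cherp and −0.15 to 0.13 for Pcf11. The planned edgeR and DESeq2 fits were not run, since the lowest values of control 1 do not show the worth of 1 read and the RPM were not treated as counts. With 2 libraries a group and a median of 51.8 reads a member, changes of low sites are the least certain.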
